A study of Rattus norvegicus with 10 samples.

Results

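Iron handling and heme oxygenase genes were followed in the dentate gyrus of rats 3 weeks after traumatic brain injury (TBI). The 8 genes were chosen by name and were Hmox1, Fth1, Ftl1, Tfrc, Tf, Cp, Slc40a1 and Slc11a1. All 8 had a row among the 25399 genes of the nucleus matrices, and 6 had a row among the 14166 genes of the bulk table. Fth1 and Slc40a1 were not analysed in bulk here.

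The animals were male Sprague-Dawley rats. TBI rats received a craniectomy and, days afterwards, a lateral fluid percussion injury (LFPI), in which a fluid pulse strikes the intact dura. Sham rats had the surgery without the pulse, and the naïve rat had no surgery. The dentate gyrus of the injured side gave bulk RNA-seq libraries of 3 sham and 3 TBI rats and single-nucleus RNA-seq (snRNA-seq) libraries of 2 TBI rats, 1 sham rat and 1 naïve rat. The sham and naïve rats together formed the control group of the nuclei, as in the study's methods, so craniectomy differed within that group. Each library came from 1 rat.

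Iron enters most cells when transferrin (encoded by Tf) binds the transferrin receptor (Tfrc) on the cell surface. It is held in ferritin shells made of heavy (Fth1) and light (Ftl1) chains, and it leaves the cell through ferroportin (Slc40a1) with the help of the ferroxidase ceruloplasmin (Cp). Heme oxygenase 1 (Hmox1) opens the heme ring and frees its iron, and Slc11a1 moves metal ions out of the phagosomes of macrophage-type cells. When iron is plentiful, cells translate more ferritin and keep less Tfrc mRNA. In brain, Tf is known as an oligodendrocyte product and Tfrc as a receptor of the capillary endothelium.

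The bulk libraries held 25121893 to 44649404 estimated counts each. In the nuclei, 55124 of 55863 passed the filters, with 26086141 to 35293678 UMIs (unique molecules counted) per rat, and 314 barcodes occurred in more than 1 library. Prox1, which marks dentate granule cells, was present in every bulk library but ranged from 16.4 to 105 CPM (counts scaled to a common library total). The listed date of injury of the bulk rats fell before July, here called spring, for TBI replicate 1 and for sham replicates 1 and 2. It fell in July or later, here called autumn, for TBI replicates 2 and 3 and sham replicate 3. Dates of the nucleus rats were not used here. Sham replicate 2 had the highest summed level of 8 oligodendrocyte markers, 18260 CPM against 5303 to 8317 CPM elsewhere. TBI replicate 3 had the highest summed level of 5 fibroblast markers, 804 CPM against 33.0 to 151 CPM. In the nuclei, the naïve rat had 146 CPM of summed hemoglobin and Alas2 UMIs in microglia-like nuclei, where the other rats had 1.54 to 30.1 CPM.

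The genomic sequences before the start sites of Tfrc and Cp are shown because in bulk every TBI library lay below sham for the first of these genes, which serves uptake, and above sham for the second, which serves export. They are the 100 bases before the annotated start (RefSeq, GRCr8), written 5′ to 3′ on the strand of the gene, at chr11:81690319-81690418 (minus strand) for Tfrc and chr2:104368570-104368669 (plus strand) for Cp. Capitals mark ACGTG, the core of a hypoxia response element, in Tfrc, and TATAAA, matched on both strands with overlap, in Cp.
Tfrc: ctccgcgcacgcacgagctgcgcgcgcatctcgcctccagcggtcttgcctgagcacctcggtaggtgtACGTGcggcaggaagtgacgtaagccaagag
Cp: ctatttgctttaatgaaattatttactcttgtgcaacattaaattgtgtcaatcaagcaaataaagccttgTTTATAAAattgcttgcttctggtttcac
ACGTG begins 31 bases before the Tfrc start, and TATAAA begins 27 bases before the Cp start. On either strand, ACGTG was found in 19.3% of all 33469 promoter entries (250 bases before to 50 after the start), TATAAA in 14.2%, and TGACNNNGC, a form of the antioxidant response element, in 12.1%. TATAAA also stood 52 bases before the Tf start. TGACNNNGC was in none of the 4 windows that had an entry, those of Tf, Tfrc, Slc40a1 and Cp. Promoters of Hmox1, Fth1, Ftl1 and Slc11a1 were not analysed here.

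The bulk comparison asked which iron genes differ between TBI and sham tissue. Hmox1, Ftl1 and Cp were higher in every TBI library than in every sham library, and Tfrc was lower. Tf and Slc11a1 overlapped between the groups. No difference passed an FDR (false discovery rate) of 0.05 by edgeR's quasi-likelihood test, which called 0 of 14166 genes (0.00%). By that test 4 of the 6 measured genes had an unadjusted p under 0.05, beside 1360 of all genes (9.60%), and the 3 higher ones stand beside 8.20% of all genes and Tfrc beside 1.40%. All TBI libraries lay above all sham libraries for 10.2% of all genes and below them for 4.84%. DESeq2 called 349 of 14154 genes (2.47%) at the same FDR, 2.39% of all genes as higher in TBI, and with them Hmox1, Ftl1 and Tfrc. The median Log2FC of the 6 genes was 0.46, beside -0.003 over all genes, and 4 of the 6 were above 0, as were 49.4% of all genes.

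Hmox1, the heme-degrading enzyme, had 5.55, 5.93 and 5.29 CPM in sham replicates 1 to 3 and 10.6, 22.1 and 8.90 CPM in TBI replicates 1 to 3. The sham libraries lay close together, and TBI replicate 2 stood far above the other TBI libraries. The means were 5.59 ± 0.32 and 13.9 ± 7.20 CPM (SD, n = 3 each), a Log2FC of 1.31 ± 0.34 (SE) with edgeR's FDR = 0.254. DESeq2 gave a Log2FC of 1.29 with FDR = 0.0217. Without TBI replicate 2 the edgeR Log2FC was 0.78. Hmox2, the constitutive heme oxygenase, had a Log2FC of -0.15 (FDR = 0.682), and Blvra, which reduces the biliverdin that heme oxygenases make, had a Log2FC of -0.31 (FDR = 0.539).

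Markers of microglia were higher in the same libraries as Hmox1. Their summed level over 10 genes was 392.95 to 412 CPM in sham and 643, 1077 and 665 CPM in TBI replicates 1 to 3, and all 10 had a Log2FC above 0, 8 of them with p under 0.05. The markers of border macrophages and monocytes summed to 10.3 to 12.9 CPM in sham and 18.2 to 47.8 CPM in TBI, with 5 of 5 higher and 4 with p under 0.05. Per 1000 CPM of microglial markers, Hmox1 stood at 14.2, 14.2 and 12.8 CPM in sham and 16.6, 20.7 and 13.8 CPM in TBI, so that the groups overlapped on this scale, which was chosen after the values were seen. For 75.2% of all genes every TBI library lay below every sham library on this scale. The hemoglobin and Alas2 list, a sign of red cells, had 6 of 6 measured genes with a Log2FC above 0 and 0 with p under 0.05. Its sum was 201 to 467 CPM in sham and 404 to 673 CPM in TBI, and TBI replicate 2, the highest for Hmox1, had the lowest of the TBI sums. The part of these cells in the result was not tested, and in bulk tissue more cells of a type and more RNA per cell cannot be told apart.

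Ftl1, the ferritin light chain, had 79.9, 65.4 and 71.7 CPM in the sham libraries and 104, 148 and 123 CPM in the TBI libraries. The lowest TBI library exceeded the highest sham library, and TBI replicate 2 was again at the top. The means were 72.4 ± 7.27 and 125 ± 22.4 CPM (SD, n = 3 each), with a Log2FC of 0.79 ± 0.15, FDR = 0.196 by edgeR and FDR = 0.00144 by DESeq2. Among all genes it ranked 72 by edgeR's p. Reads of Ftl1 can be split with the near-identical gene LOC100360087, which had a Log2FC of 0.52 (FDR = 0.440), so the value of either alone is uncertain. Summed with that copy, Ftl1 had a Log2FC of 0.60 (FDR = 0.281). Per 1000 CPM of microglial markers, Ftl1 was 156 to 204 CPM in sham and 138 to 190 CPM in TBI, with overlap. On that scale 75.2% of all genes had every TBI library below every sham library.

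Cp, the copper-carrying ferroxidase, had the largest Log2FC of the 6 genes. It had 5.40, 14.9956 and 6.02 CPM in the sham libraries and 18.0, 31.0 and 65.0 CPM in the TBI libraries. Sham replicate 2 came close to TBI replicate 1, and TBI replicate 3 had more than the other libraries. The means were 8.80 ± 5.37 and 38.0 ± 24.2 CPM (SD, n = 3 each), with a Log2FC of 2.12 ± 0.56, FDR = 0.259 by edgeR and FDR = 0.0813 by DESeq2. Without TBI replicate 3 the Log2FC was 1.48 (FDR = 0.522).

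Fibroblast markers were also highest in the library with the most Cp. All 5 had a Log2FC above 0, 4 of them with p under 0.05, and the median was 2.46. Col1a1 and Col1a2, the chains of type I collagen, had 275 and 397 CPM in TBI replicate 3, 15.2 and 17.1 CPM in TBI replicate 2, and 41.0 and 66.1 CPM in TBI replicate 1. Per 1000 CPM of the fibroblast markers, Cp was at 145 to 209 CPM in sham and 83.1 to 431 CPM in TBI. In TBI replicate 2 the fibroblast markers summed to 72.4 CPM, against 33.0 to 70.5 CPM in sham and 151 CPM in TBI replicate 1. TBI replicate 3 also had the highest summed pericyte markers, 332 CPM against 122 to 161 CPM. Endothelial markers were 420 against 172 to 211 CPM there, and border macrophage and monocyte markers 47.8 against 10.3 to 19.4 CPM. Choroid plexus markers were 2.62, 31.2 and 3.78 CPM in sham and 1.77, 11.7 and 19.9 CPM in TBI. Per 1000 CPM of microglial markers, Cp was 13.8, 35.8 and 14.5 CPM in sham and 28.3, 28.9 and 100.4 CPM in TBI, with overlap. The part of any of these cells in the result was not tested.

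**Figure D1:**
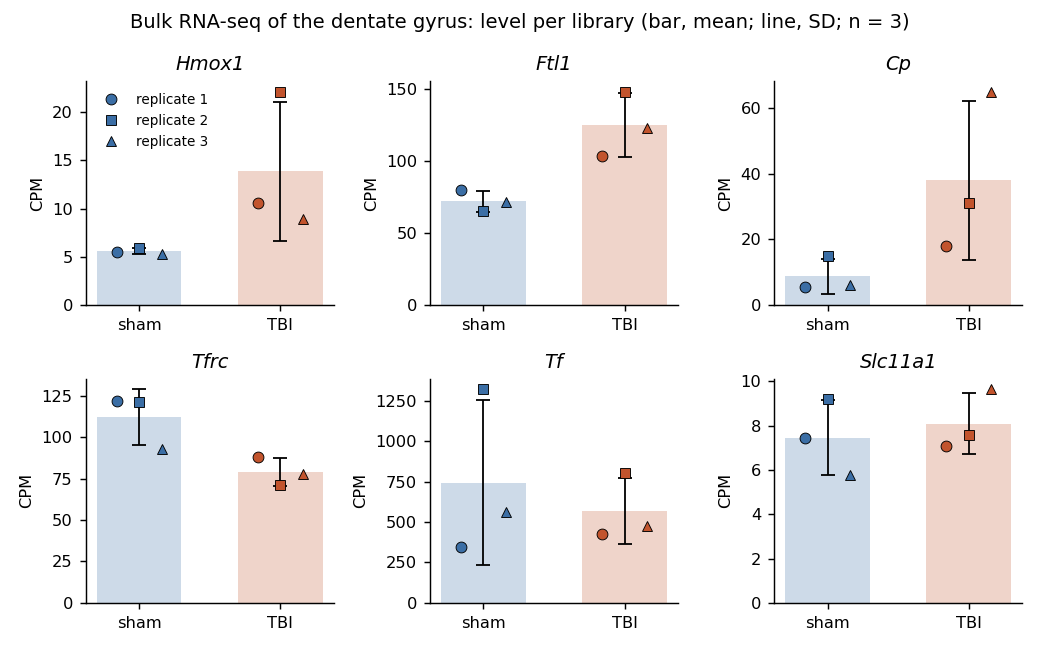
CPM of 6 iron and heme genes in each bulk library, with sham and TBI on the x axis, points for the 3 replicates, bars for means and lines for the SD. Hmox1, Ftl1 and Cp lie above sham in all 3 TBI libraries, Tfrc lies below, and Tf and Slc11a1 overlap.

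Tfrc, which imports transferrin-bound iron, had 122, 121 and 92.8 CPM in the sham libraries and 87.8, 71.3 and 77.6 CPM in the TBI libraries. The groups did not overlap, but sham replicate 3 and TBI replicate 1 were close. The means were 112 ± 16.7 and 78.9 ± 8.35 CPM (SD, n = 3 each), with a Log2FC of -0.51 ± 0.14, FDR = 0.285 by edgeR and FDR = 0.0338 by DESeq2. Within the spring rats the log2 difference of TBI from sham was -0.45, and within the autumn rats it was -0.26. The summed levels of 6 endothelial markers, the cells in which Tfrc was highest in the nuclei, were 172 to 197 CPM in sham and 188 to 420 CPM in TBI, with all 6 above 0 in Log2FC and 0 with p under 0.05.

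Tf, the iron carrier, had 346, 1319 and 563 CPM in the sham libraries and 425, 801 and 478 CPM in the TBI libraries. Sham replicate 2, with the most oligodendrocyte transcripts, set the high end of its group, and the groups overlapped (Log2FC -0.39 ± 0.48, edgeR FDR = 0.872). Without sham replicate 2 the Log2FC was 0.32. Per 1000 CPM of 8 oligodendrocyte markers, Tf was at 61.4, 71.0 and 76.9 CPM in sham and 80.7, 96.8 and 91.4 CPM in TBI. On this scale, chosen after the values were seen, each TBI library was above each sham library, as was the case for 10.3% of all genes.

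**Figure D2:**
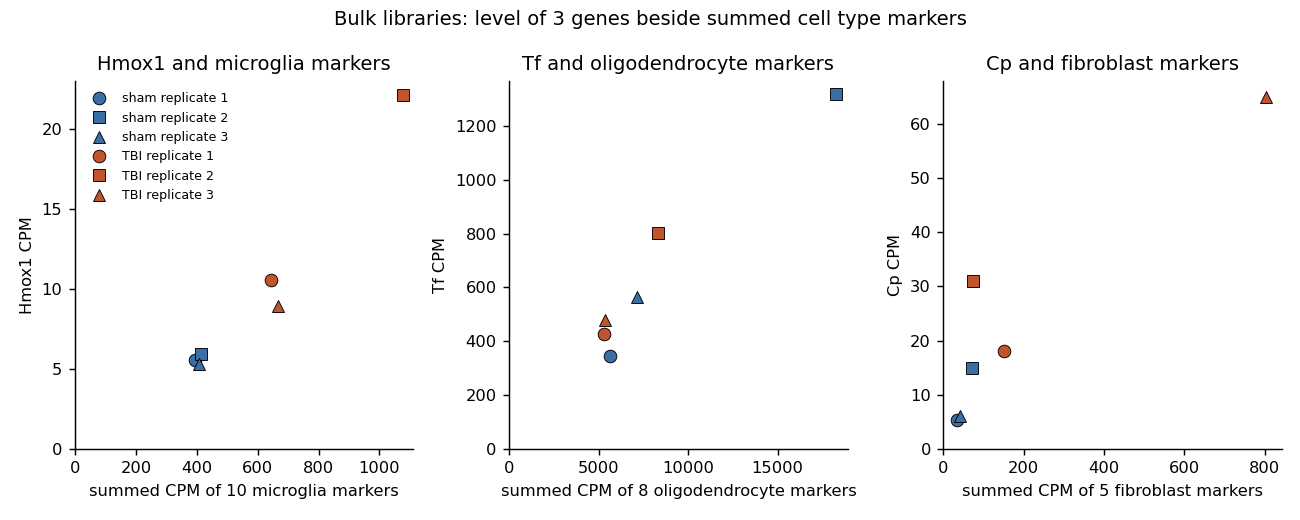
Levels of Hmox1, Tf and Cp in CPM (y axes) against the summed CPM of markers of microglia, oligodendrocytes and fibroblasts (x axes), with 1 point per bulk library. TBI replicate 2 is highest for Hmox1 and microglial markers, sham replicate 2 for Tf and oligodendrocyte markers, and TBI replicate 3 for Cp and fibroblast markers.

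Slc11a1, the phagosomal transporter, had 7.42, 9.18 and 5.78 CPM in the sham libraries and 7.07, 7.57 and 9.63 CPM in the TBI libraries. The groups overlapped, with a Log2FC of 0.12 ± 0.22 (edgeR FDR = 0.929). Per 1000 CPM of microglial markers it was 18.97, 21.9 and 13.9 CPM in sham and 11.1, 7.09 and 14.9 CPM in TBI. TBI replicates 1 and 2 were under every sham library on this scale and TBI replicate 3 was not. For 75.2% of all genes every TBI library lay under every sham library on this scale.

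Few other genes of the iron and heme lists had a small p. By edgeR, Nfe2l2 and Slc7a11 of the Nrf2 axis and Bmp6 of iron regulation had p under 0.05, and Nfe2l2 and Slc7a11 passed an FDR of 0.05 by DESeq2. Nfe2l2, the transcription factor of the antioxidant response that also drives Hmox1, had 23.4, 26.3 and 20.9 CPM in sham and 34.2, 44.3 and 34.4 CPM in TBI (Log2FC 0.68 ± 0.15, edgeR FDR = 0.197). Slc7a11, the cystine importer, had 94.1, 106 and 71.8 CPM in sham and 130, 140 and 186 CPM in TBI (Log2FC 0.75 ± 0.19, edgeR FDR = 0.243). Both were above sham in every TBI library. The other 8 measured genes of the Nrf2 axis had p over 0.05, and their Log2FC ran from -0.28 in Srxn1 to 0.21 in Bach1. Nqo1, Gclm and Txnrd1, known targets of the factor, had a Log2FC of 0.15, -0.23 and -0.02.

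Bmp6, a signal that raises hepcidin in liver, had 12.6, 14.1 and 8.09 CPM in sham and 15.1, 16.1 and 48.4 CPM in TBI (Log2FC 1.20 ± 0.47, edgeR FDR = 0.472). As with Cp, TBI replicate 3 was far above the rest. Heme synthesis had 8 measured genes, of which 3 had a Log2FC above 0 and 0 had p under 0.05, with values from -0.13 in Cpox to 0.14 in Ppox. Mitochondrial iron had 7 measured genes and 0 with p under 0.05. Of the scavenging genes, Cd163, the hemoglobin-haptoglobin receptor of macrophages, had 1.37, 1.94 and 1.14 CPM in sham and 2.01, 2.08 and 4.71 CPM in TBI (Log2FC 0.99, FDR = 0.542). Heph, the membrane-bound relative of ceruloplasmin, had a Log2FC of 0.63 (FDR = 0.649), and Ncoa4, which carries ferritin to breakdown, of -0.04 (FDR = 0.937).

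**Figure D3:**
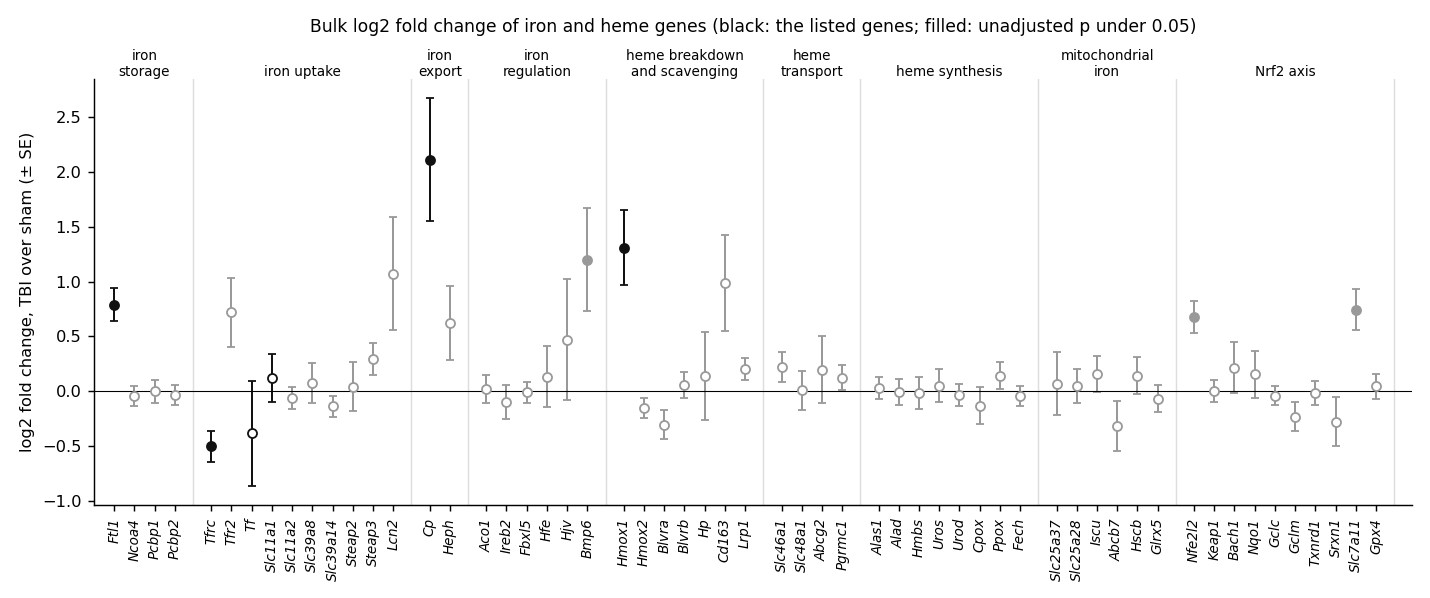
Bulk Log2FC of TBI over sham (y axis, with SE) for genes of the iron and heme lists, grouped by role along the x axis, with the listed genes in black and points filled where unadjusted p was under 0.05. Cp at 2.12 is the highest and Tfrc at -0.51 the lowest, and the heme synthesis genes stay between -0.13 and 0.14.

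For each gene, the 3 genes with the most similar log2 CPM over the 6 bulk libraries were listed as a description by Pearson's r. Hmox1 was most like an unnamed gene (r = 0.9992), Havcr2 (r = 0.9965) and Klhl6 (r = 0.9961). Ftl1 was most like Trim63 (r = 0.996), Cd63 (r = 0.9952), which encodes a lysosomal membrane protein, and Aif1 (r = 0.99), a microglial marker. Cp was most like Mamdc4, Slc29a1 and Antxr2 (each r = 0.99), Tf like Tppp3 (r = 0.9995), Rlim (r = 0.9986) and C1h10orf90 (r = 0.9958), Tfrc like Paip2b, Epc2 (each r = 0.98) and Tp53bp1 (r = 0.97), and Slc11a1 like Sycp3 (r = 0.9961), Zfx and Tmprss13 (each r = 0.99). With 6 points chosen out of 14166 genes, values this high say little about any one pair.

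In the nuclei, the question was which cells carry each transcript and whether the TBI rats differ within them. Each class was named from markers. Glutamatergic neuron-like nuclei were the most common (71.3% of the nuclei of the naïve rat, 62.1% of the sham rat, and 58.8% and 53.1% of TBI replicates 1 and 2). The other classes were GABAergic neuron-like, astrocyte-like, oligodendrocyte-like, oligodendrocyte precursor-like (OPC-like), microglia-like and vascular-like, the last made of 434 nuclei led by endothelial genes and 138 led by pericyte and fibroblast genes. Of 24 clusters, 8 stayed unnamed. Microglia-like nuclei also held markers of border macrophages and monocytes, for which no class was named. These markers summed to 113 and 49.9 CPM there in the sham and naïve rats and 12.9 and 95.5 CPM in TBI replicates 1 and 2. Levels below are CPM of UMIs summed per rat and class, which compare a gene between classes and not 1 gene with another.

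Hmox1 was concentrated in microglia-like nuclei. Its mean over 4 rats was 25.5 ± 13.5 CPM (SD) there, and every rat was above every rat of the next class, vascular-like nuclei, at 3.25 ± 2.78 CPM. GABAergic neuron-like, astrocyte-like, OPC-like, glutamatergic neuron-like and oligodendrocyte-like nuclei followed, from 1.41 down to 0.33 CPM, and these neighbours overlapped. With every nucleus thinned to 500 UMIs, 0.463% to 2.19% of microglia-like nuclei and 0.00331% to 0.0330% of glutamatergic neuron-like nuclei had a Hmox1 UMI. Unthinned, these shares were 0.751% to 2.73% and 0.0124% to 0.118%, at median depths of 604 to 775 and 1790 to 2756 UMIs. No nucleus was left out by the thinning.

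Within microglia-like nuclei Hmox1 had 4 UMIs (10.3 CPM) in the sham rat, 7 (24.95 CPM) in the naïve rat, 11 (23.6 CPM) in TBI replicate 1 and 28 (43.1 CPM) in TBI replicate 2. TBI replicate 2 was the highest, but TBI replicate 1 was within the controls (Log2FC 0.98 ± 0.66, edgeR FDR = 0.99991). Some matrix entries were stored with the value 0. Counting each as 1 UMI, a setting chosen after seeing the data, gave 12.15, 22.55, 23.47 and 33.81 CPM in the same order. Both TBI rats then lay above both controls, TBI replicate 1 by little (Log2FC 0.76, edgeR FDR = 0.9993). Over all nuclei the levels were 0.82, 0.37, 1.17 and 2.57 CPM in the same order, both TBI rats above both controls, with a Log2FC of 1.56 ± 0.60 (edgeR FDR = 0.982). Both TBI rats lay above both controls for 23.8% of the 15959 genes tested over all nuclei. In astrocyte-like nuclei Hmox1 was also higher in both TBI rats, at 0.78, 0.19, 1.24 and 3.36 CPM in that order. These values rest on 1 to 10 UMIs each, and 26.5% of genes tested there had that pattern. An unnamed cluster led by microglial genes had 4.05, 3.73, 8.77 and 11.54 CPM, from 1 to 7 UMIs each. Its marker score was higher for glutamatergic neurons (0.449) than for microglia (0.258), and doublets were not removed. The groups overlapped in both neuron-like classes and in oligodendrocyte-like and vascular-like nuclei. OPC-like nuclei had at most 1 UMI per rat. The microglia-like share of nuclei, 3.23% for the naïve rat, 3.15% for the sham rat, and 4.65% and 7.12% for TBI replicates 1 and 2, was also higher in both TBI rats, and its part in the value over all nuclei was not tested.

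Slc11a1 was likewise highest in microglia-like nuclei, at 78.7 ± 50.2 CPM against 2.33 ± 1.76 CPM in astrocyte-like nuclei and 0.54 CPM in glutamatergic neuron-like nuclei. Every rat was above every rat of the next class there, and the classes below overlapped. Thinned to 500 UMIs, 1.22% to 7.06% of microglia-like nuclei had an Slc11a1 UMI, and 0.0132% to 0.0606% of glutamatergic neuron-like nuclei did. The levels in microglia-like nuclei were 146 CPM (41 UMIs) for the naïve rat, 82.4 CPM (32 UMIs) for the sham rat, and 27.9 CPM (13 UMIs) and 58.5 CPM (38 UMIs) for TBI replicates 1 and 2. Both TBI rats were below both controls, as were 10.4% of the 7632 genes tested in this class. The Log2FC was -1.36 ± 0.48, and it did not pass edgeR's adjustment (FDR = 0.99991). Unadjusted p under 0.05 was reached by 58 of the genes tested (0.760%), of which Slc11a1 was the sole one of the 34 iron and heme genes tested in these nuclei. Without TBI replicate 1 the Log2FC was -1.02 (FDR = 0.99999). Summed microglial markers within these nuclei were 4412 CPM in the sham rat and 9814 CPM in the naïve rat against 4764 and 5589 CPM in the TBI rats, and their part in the result was not tested. The unnamed cluster of 641 nuclei led by microglial genes, which scored higher for glutamatergic neurons, overlapped between the groups. It held Slc11a1 at 16.2, 18.6, 4.38 and 28.0 CPM in the sham rat, the naïve rat and TBI replicates 1 and 2.

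Cp was also highest in microglia-like nuclei, at 98.2 ± 35.3 CPM, with every rat above every rat of OPC-like nuclei (29.5 ± 4.43 CPM). Vascular-like nuclei had 23.2 ± 25.9 CPM, and astrocyte-like, oligodendrocyte-like and neuron-like nuclei 11.7 to 17.7 CPM, with overlap between neighbours. Within microglia-like nuclei it had 95.3 and 111 CPM in the sham and naïve rats and 51.6 and 136 CPM in TBI replicates 1 and 2. The TBI rats lay on either side of the controls (Log2FC -0.13 ± 0.49, edgeR FDR = 0.99991), unlike the bulk libraries, where the TBI libraries all exceeded sham. Fibroblast markers were scarce in the nuclei, with 3.71 to 8.46 CPM summed over 4 genes in all nuclei of a rat. In the cluster led by pericyte and fibroblast genes Cp had 0 and 146 CPM in the sham and naïve rats and 57.7 and 0 CPM in the TBI rats, from 0 to 6 UMIs each.

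**Figure D4:**
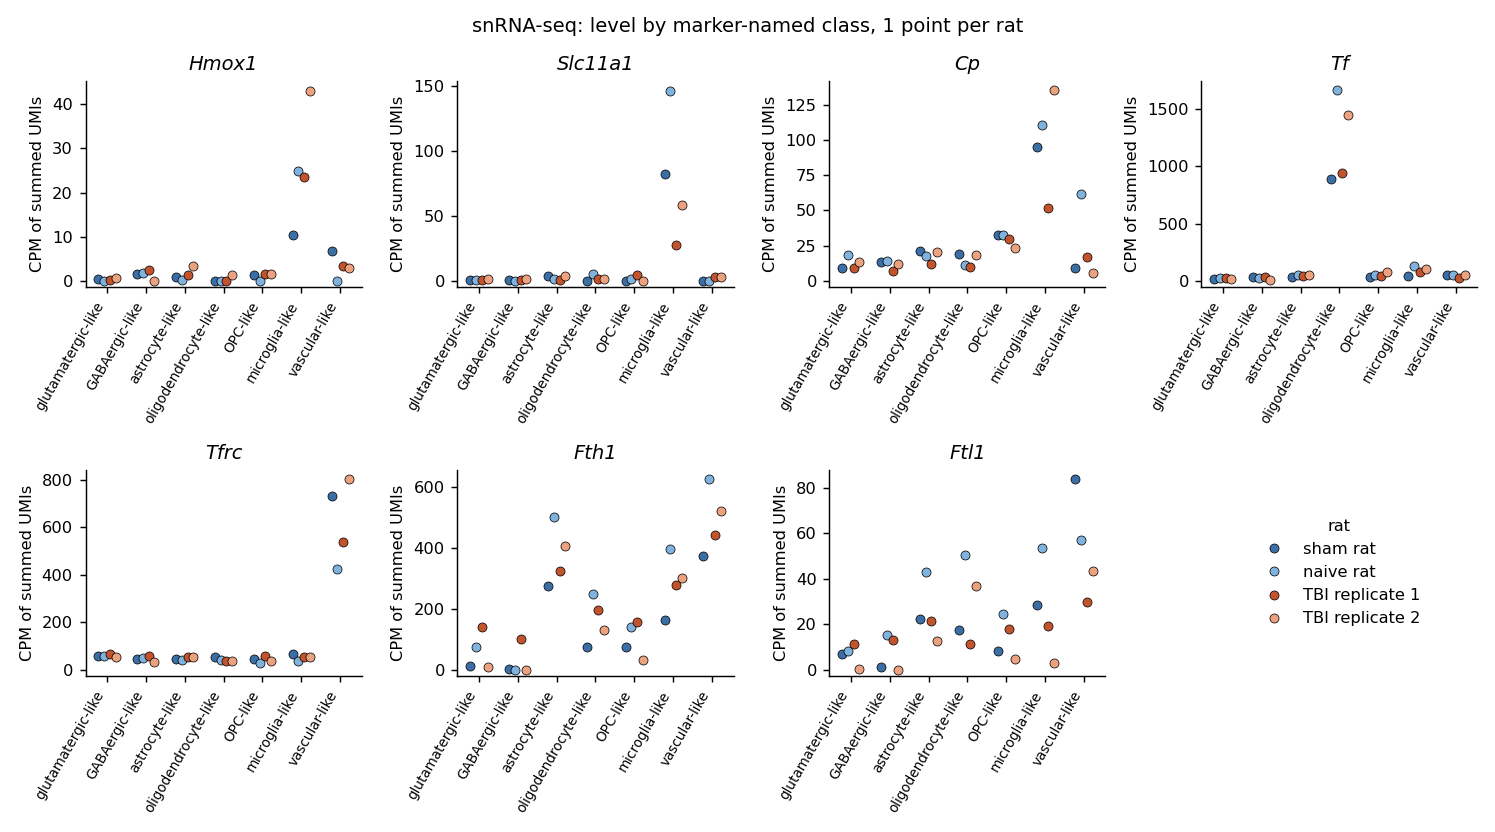
CPM of summed UMIs (y axes) of 7 genes in each marker-named class (x axes), with 1 point for each of 4 rats. Hmox1, Slc11a1 and Cp are highest in microglia-like nuclei, Tf in oligodendrocyte-like nuclei and Tfrc in vascular-like nuclei, while Fth1 and Ftl1 are spread over the classes.

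Tf was highest in oligodendrocyte-like nuclei, at 1234 ± 380 CPM over 4 rats, and every rat was above every rat of microglia-like nuclei (88.4 ± 34.9 CPM). OPC-like, vascular-like and astrocyte-like nuclei (50.8, 45.8 and 45.3 CPM) did not differ beyond their spread, and both neuron classes were lowest at 25.3 and 21.3 CPM. In oligodendrocyte-like nuclei Tf had 885 and 1662 CPM in the sham and naïve rats and 943.5 and 1446 CPM in TBI replicates 1 and 2. The controls spanned the TBI rats (Log2FC -0.25 ± 0.44, edgeR FDR = 0.99965). The oligodendrocyte markers of these nuclei had the same order among rats, with 8510, 17810, 9498 and 13630 CPM summed.

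Tfrc was highest in vascular-like nuclei, at 625 ± 175 CPM against 58.2 ± 5.99 CPM in glutamatergic neuron-like nuclei, with every rat above every rat of that class. The cluster led by endothelial genes had 716 CPM and the cluster led by pericyte genes 41.1 CPM. All other classes lay between 41.5 and 58.2 CPM and overlapped. In vascular-like nuclei Tfrc had 733 and 425 CPM in the sham and naïve rats and 538 and 805 CPM in the TBI rats, which overlapped (Log2FC 0.18 ± 0.34, edgeR FDR = 0.9997). Over all nuclei it had 61.9, 53.7, 66.9 and 60.2 CPM in the sham rat, the naïve rat and TBI replicates 1 and 2. The nuclei thus did not show the lower level of the bulk TBI libraries (Log2FC 0.07 ± 0.15, edgeR FDR = 0.988). With each stored zero counted as 1 UMI, the levels were 64.4, 59.0, 67.8 and 69.3 CPM in that order. Both TBI rats then lay above both controls, and the share of all genes with that pattern under this setting is not given here. In astrocyte-like nuclei Tfrc was higher in both TBI rats than in both controls (Log2FC 0.29), beside 26.5% of genes tested there, and in oligodendrocyte-like nuclei it was lower in both (Log2FC -0.53), beside 8.13%.

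The ferritin genes were found in all classes. Fth1 was at 492 ± 109 CPM in vascular-like, 378 ± 100 CPM in astrocyte-like and 285 ± 94.8 CPM in microglia-like nuclei. In glutamatergic neuron-like nuclei it had 11.9 and 75.5 CPM in the sham and naïve rats and 139 and 8.90 CPM in TBI replicates 1 and 2. In GABAergic neuron-like nuclei it had 102 CPM in TBI replicate 1, 1.03 CPM in the sham rat and 0 in the other rats. The ranges of neighbouring classes overlapped throughout, although all 4 rats had more Fth1 in vascular-like than in astrocyte-like nuclei. An unnamed cluster of 1943 nuclei, whose leading genes were all mitochondrial, had a higher mean of Fth1 than any named class, 749 CPM. Its levels were 318 and 1121 CPM in the sham and naïve rats and 445 and 1111 CPM in TBI replicates 1 and 2. Ftl1 was at 53.5 ± 23.0 CPM in vascular-like nuclei and at 26.1 to 29.0 CPM in oligodendrocyte-like and microglia-like nuclei.

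Both ferritin values rest on entries that the matrices store in an unusual way. Some entries are listed with the value 0. Of all entries they made up 15.5% for the naïve rat, 11.1% for the sham rat, and 1.63% and 27.4% for TBI replicates 1 and 2. Of Fth1 entries 9.16% were stored as 0 in TBI replicate 1, against 67.6% for the naïve rat, 68.7% for the sham rat and 80.8% for TBI replicate 2. In GABAergic neuron-like nuclei all 336 Fth1 entries of TBI replicate 2 and all 228 of the naïve rat were stored as 0. With each stored zero counted as 1 UMI, a setting chosen after seeing the data, Fth1 had 67.4 to 160 CPM in GABAergic and 88.1 to 203 CPM in glutamatergic neuron-like nuclei. For Ftl1 the shares were 6.55%, 45.8%, 40.3% and 82.5% in the same order of rats. No source used here gives the step that wrote these values. In microglia-like nuclei, Slc11a1 had 0 stored zeros in every rat and Hmox1 had 1, in the sham rat.

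**Figure D5:**
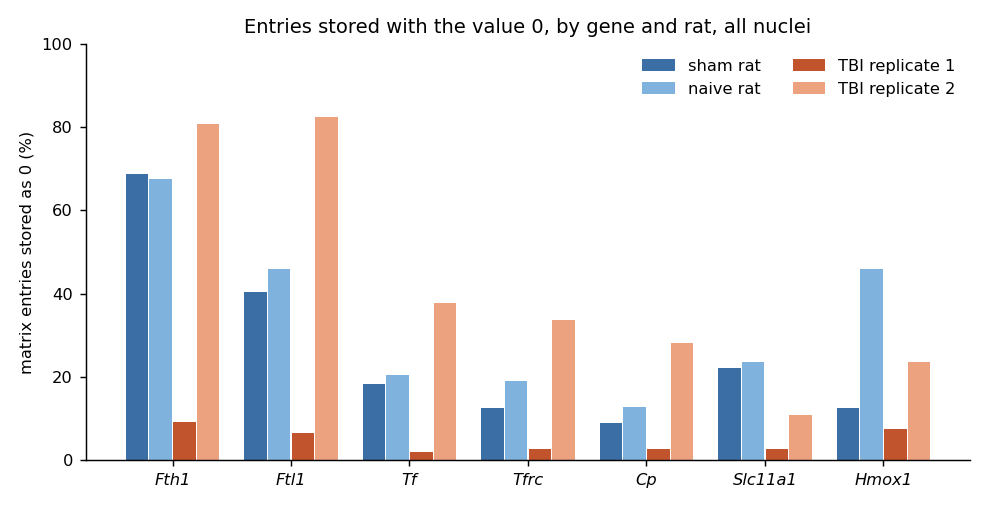
Percent of the matrix entries of each gene that are stored as 0 (y axis), by gene (x axis) and rat (bar colour), over all nuclei. Fth1 and Ftl1 stand at 40.3% or more in every rat but TBI replicate 1, where they are at 9.16% and 6.55%.

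Ftl1 was lower in both TBI rats than in both controls in astrocyte-like, microglia-like and vascular-like nuclei. In astrocyte-like nuclei it had 22.3 and 43.0 CPM in the sham and naïve rats and 21.6 and 12.8 CPM in TBI replicates 1 and 2 (Log2FC -0.98 ± 0.40, edgeR FDR = 0.375), and 17.6% of the genes tested there had both TBI rats below both controls. In vascular-like nuclei it had 83.7, 57.0, 29.9 and 43.4 CPM in that order (Log2FC -0.98 ± 0.46, edgeR FDR = 0.912), beside 15.4% of genes. In microglia-like nuclei it had 28.3, 53.5, 19.3 and 3.08 CPM, from 2 to 15 UMIs each (Log2FC -1.91 ± 0.88, edgeR FDR = 0.99991), beside 10.4% of genes, and 20 of the 22 Ftl1 entries of TBI replicate 2 there were stored as 0. With each stored zero counted as 1 UMI, the levels in astrocyte-like nuclei were 25.9, 47.2, 21.9 and 33.7 CPM and overlapped (Log2FC -0.48, edgeR FDR = 0.534). In vascular-like nuclei both TBI rats were still the lowest at 36.3 and 57.6 CPM (Log2FC -0.70, edgeR FDR = 0.750). In microglia-like nuclei TBI replicate 2 rose from 2 to 22 UMIs, and the levels were 29.2, 58.0, 19.2 and 26.6 CPM (Log2FC -0.88, edgeR FDR = 0.9993). Without TBI replicate 2 the Log2FC there was -1.03.

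Fth1 did not separate the groups in any named class. Over all nuclei it had 54.0 and 155 CPM in the sham and naïve rats and 171 and 107 CPM in TBI replicates 1 and 2 (Log2FC 0.34 ± 0.46, edgeR FDR = 0.982), and with each stored zero counted as 1 UMI 122, 259, 181 and 265 CPM. In vascular-like nuclei, where fewer entries were stored as 0, it had 373 and 627 CPM in the controls and 442 and 524 CPM in the TBI rats (Log2FC -0.06 ± 0.33, edgeR FDR = 0.9997).

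Slc40a1, the sole known iron exporter, was not detectable in these nuclei at this depth beyond 1 UMI, which came from a vascular-like nucleus of TBI replicate 1, in a total of 128681321 UMIs. In microglia-like nuclei 0 of 1783963 UMIs were Slc40a1, which allows up to 1.68 CPM, and in oligodendrocyte-like nuclei 0 of 2318120 UMIs, which allows up to 1.29 CPM. As floor these limits use 3 counts, and they include no error but that of counting. Whether reads of Slc40a1 are assigned to it in these matrices was not tested, so the limits hold for the counted UMIs alone.

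No gene of any class passed an FDR of 0.05 by edgeR (0.00% in each of the 7 classes and in all nuclei). DESeq2 called 5 genes over all nuclei, 251 in astrocyte-like and 6 in glutamatergic neuron-like nuclei and 0 in the other classes, and none was one of the 8 genes, although in astrocyte-like nuclei DESeq2 gave no adjusted p to Hmox1, Ftl1, Slc11a1 and Cp. Among the iron and heme lists, edgeR's unadjusted p was under 0.05 for 4 of 63 genes tested over all nuclei, 4 of 49 in astrocyte-like, 2 of 31 in vascular-like and 1 each in GABAergic neuron-like and microglia-like nuclei, beside 3.44%, 12.7%, 5.26%, 1.37% and 0.760% of all genes tested in them. In OPC-like nuclei it was under 0.05 for 2.03% of all genes tested. It was under 0.05 for 0 of 56 such genes in glutamatergic neuron-like and 0 of 35 in oligodendrocyte-like nuclei, beside 1.26% and 0.977%. Slc25a28, a mitochondrial iron importer, had a Log2FC of 1.03 ± 0.24 in astrocyte-like nuclei (edgeR FDR = 0.192), 0.85 in GABAergic neuron-like nuclei (FDR = 0.99995) and 0.56 over all nuclei (FDR = 0.982), and 0.05 in bulk (FDR = 0.967). Slc7a11, with a Log2FC of 0.75 in bulk, had one of -0.65 ± 0.17 in astrocyte-like nuclei (edgeR FDR = 0.208), -1.20 ± 0.33 in vascular-like nuclei (edgeR FDR = 0.798) and -0.56 ± 0.18 over all nuclei (edgeR FDR = 0.982). Nfe2l2 had a Log2FC of -0.52 in astrocyte-like nuclei (FDR = 0.404) and 0.30 in microglia-like nuclei (FDR = 0.99991).

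Over the 28 sums of 7 classes and 4 rats, the 3 genes with the most similar log2 CPM were again listed for each gene. These sums share libraries and depth, so r is a description. Slc11a1 was most like Il10ra (r = 0.93), Il21r (r = 0.92) and Ugt1a6 (r = 0.92), and Hmox1 like Arhgap27 (r = 0.96), Ugt1a6 and Nfkb1 (each r = 0.91). Tf was most like Rtn4 (r = 0.96), Ermn and Otud7b (each r = 0.95), and Tfrc like Mecom, Ushbp1 (each r = 0.96) and Ccm2l (r = 0.95). Fth1 was most like Rpl19 (r = 0.94), which encodes a ribosomal protein, Ddt and Rack1 (each r = 0.93), Ftl1 like Npm1 (r = 0.88), Rpl22l1 and Anp32b (each r = 0.87), and Cp like Dclre1c (r = 0.85), Slc9a9 and Kcnj5 (each r = 0.84).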

How the data were processed

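The authors mapped bulk reads with kallisto and deposited estimated counts of 31715 transcripts, not normalized, and log2 CPM of 14166 genes after filtering. The log2 values, less their offset of 0.5, were turned back into gene counts with the library totals and rounded. 10097 genes (71.3%) equalled 1 transcript within 0.001. RefSeq gave symbols to 13778 Entrez identifiers. Nuclear reads were counted by the authors with Cell Ranger on Rnor_6.0, introns included, and deposited UMI counts per rat, as integers that include stored zeros, read as 0. Groups came from the labels, and the spring and autumn periods from the dates of injury in a deposited table of the rats. With rats as replicates, p-values measure the spread between them.

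Nuclei with at least 500 UMIs, 300 features and a ratio of log10 genes to log10 UMIs of 0.8, at most 5% mitochondrial and 2% ribosomal UMIs were kept. Seurat 5.3.0 used 2000 variable features, of which 11 iron genes were left out, 25 components, CCA and a resolution of 0.6. Doublets were not removed. A class needed a marker score of 0.25, at least 2 times that of the next class, and 3 markers. UMIs were summed per rat and class.

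The test was edgeR 4.0.16's quasi-likelihood test (TMM, Benjamini-Hochberg over all genes; filterByExpr for nuclei) in R 4.3.3. Alternatives used DESeq2 1.42.0 and limma 3.58.1. Bulk CPM printed above were scaled by TMM. Ratios to markers divided the deposited CPM, not so scaled, by TMM-scaled marker sums, so they differ a little from ratios of the printed levels. The shares of all genes on these scales were computed the same way. On simulated bulk data with 200 changed genes edgeR recovered 192 with 8 false calls, and in microglia-like nuclei it recovered 42 of 200. Every planted change was larger in log2 size than the bulk values of Hmox1, Ftl1 and Tfrc, so recovery at their size was not measured. The simulations gave each gene the spread typical of its level, without spread of its own or between surgery periods. Their recovery therefore does not carry over to the real libraries. There Cp, with a Log2FC of 2.12 above the smaller planted size, had edgeR FDR = 0.259. No pairing of rats by replicate number is given in the sources used here, so no block was used. Libraries of the same number had r = 0.35, 0.17 and -0.03, which cannot exclude a pairing. The 8 genes, the lists and the rule for named genes (pathway genes with unadjusted p under 0.05 in bulk, and the 3 most similar genes of each) were chosen with earlier results of these data known, and the other pathway and marker genes named were picked after their values were seen. Of the list genes, 1 is not reported here.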

Additional observations from a re-analysis of the deposited data

Results flagged for a closer look

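Slc11a1 in bulk moved in opposite directions in the rats with spring and with autumn dates of injury. In spring TBI replicate 1 was 0.21 below the sham mean on the log2 scale (-0.21), and in autumn TBI replicates 2 and 3 were both above sham replicate 3, with a mean log2 difference of 0.63. The autumn value rests on 1 sham library, and the difference between the periods was not tested.

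Tfrc in the nuclei was above both controls in both TBI rats in astrocyte-like nuclei (44.6 and 38.6 CPM in the sham and naïve rats, 54.0 and 52.1 CPM in TBI, Log2FC 0.29) and below both controls in oligodendrocyte-like nuclei (53.4 and 42.2 CPM against 34.0 and 37.9 CPM, Log2FC -0.53). The oligodendrocyte-like values rest on 15 to 31 UMIs each. With each stored zero counted as 1 UMI, they were 52.1 and 45.7 CPM in the controls and 40.1 and 47.7 CPM in TBI, and overlapped. The astrocyte-like values stayed apart under that setting, at 48.1 and 43.9 CPM against 54.4 and 60.2 CPM. The difference between these classes was not tested, and classes of 1 rat share its library.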

How the results depend on the processing

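The bulk directions of Hmox1, Ftl1, Cp and Tfrc were the same under every alternative run. Where edgeR called 0 genes, DESeq2 called 349, with Hmox1 (Log2FC 1.29), Ftl1 (0.77) and Tfrc (-0.53). Adjusted only over genes with unadjusted p under 0.05, DESeq2 called 1525 of 14166 genes, with the same 3 genes and Cp (2.09). Every gene entered there passes by construction, so these calls add nothing to the unadjusted p. By the usual adjustment Cp had a DESeq2 FDR of 0.0813. With the replicate number as a block edgeR called 61 genes and none of the 6 measured genes. The replicate numbers do not pair the rats in the sources used here. Replicates 1 and 2 correlated best with their own number, and replicate 3 with number 2. Leaving out each bulk library in turn gave 0 to 1 genes called and Log2FC of 0.78 to 1.55 for Hmox1, 0.63 to 0.91 for Ftl1, 1.48 to 2.73 for Cp, -0.64 to -0.44 for Tfrc, -0.74 to 0.32 for Tf and -0.049 to 0.30 for Slc11a1, of which Tf and Slc11a1 changed sign (Slc11a1 -0.024 without TBI replicate 3).

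In the nuclei DESeq2 called 5 genes over all nuclei, 251 in astrocyte-like and 6 in glutamatergic neuron-like nuclei. Without a filter on low sums edgeR called 645 genes in astrocyte-like, 61 in GABAergic neuron-like, 9 in microglia-like, 6 in oligodendrocyte-like and 5 in vascular-like nuclei. With the filter it called 0 in each. Ftl1 was among the 645 (-0.98, FDR = 0.0492). Of its entries of TBI replicate 2 in astrocyte-like nuclei, 68.1% were stored as 0. With each stored zero counted as 1 UMI, Ftl1 overlapped between the groups there. Leaving out each rat gave 0 to 113 calls over all nuclei, 0 to 8 in astrocyte-like, 0 to 164 in GABAergic neuron-like, 0 to 23 in glutamatergic neuron-like, 0 to 136 in microglia-like, 0 to 235 in OPC-like and 3 to 11 in vascular-like nuclei, each time with 1 rat alone in its group. In microglia-like nuclei Log2FC then ran from 0.48 to 1.64 for Hmox1, -1.99 to -0.94 for Slc11a1, -3.66 to -1.03 for Ftl1, -0.41 to 0.76 for Fth1, -0.47 to 0.90 for Tf, -0.31 to 0.63 for Tfrc and -0.98 to 0.32 for Cp. Over all nuclei it ran from 0.88 to 2.23 for Hmox1, -0.23 to 1.31 for Fth1, -1.42 to 0.010 for Ftl1, 0.06 to 0.73 for Tf, -0.024 to 0.17 for Tfrc, -0.82 to 0.95 for Slc11a1 and -0.74 to 0.15 for Cp. In vascular-like nuclei it ran from -0.40 to 0.34 for Fth1, -1.26 to -0.65 for Ftl1 and -0.15 to 0.63 for Tfrc, in oligodendrocyte-like nuclei from -0.70 to 0.40 for Tf and in astrocyte-like nuclei from -1.44 to -0.43 for Ftl1. A minimum of 1000 UMIs turned the sign of Fth1 in microglia-like nuclei (-1.37) and of Tf over all nuclei (-0.049), and stored zeros counted as 1 UMI turned that of Slc11a1 over all nuclei (-0.061). The cause of these changes was not tested. The sum of transcript counts by accession was not run. In microglia-like nuclei Hmox1 and Slc11a1 have no value at 1000 UMIs, nor Hmox1 without TBI replicate 2.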

Other observations

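Bmp2, a relative of Bmp6 that also acts on hepcidin, had a Log2FC of 2.26 ± 0.75 over all nuclei (edgeR FDR = 0.982). Hp, which encodes haptoglobin, the plasma protein that binds free hemoglobin, had a Log2FC of 1.45 ± 0.52 in astrocyte-like nuclei (edgeR FDR = 0.321) and 0.14 in bulk (FDR = 0.961).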
